A study of Mus musculus with 2 samples.

Results

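Windows of 250 kb along the mouse autosomes that no called 5hmC peak overlaps are described here. They were chosen from the peak list of a captured 5hmC library of prospermatogonia, which are the germ cells of a testis before birth. The windows were laid from position 0 of each chromosome of build mm10, and those that start at 3 Mb or later and end by the end of the last annotated gene were kept. Of 9605 such windows, 359 held no peak, which is 3.74% (exact 95% interval 3.37 to 4.14). They cover 89.75 Mb of 2401 Mb. The absence of peaks is what chose them, so it is given as a description.

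The captured library came from wild-type prospermatogonia at stage E17.5, with 30000 cells pooled from several embryos and 50 ng of DNA as starting material. In 5hmC-Seal a modified glucose and then biotin are attached to 5-hydroxymethylcytosine (5hmC), and the tagged DNA is captured on streptavidin. The series also has 1 library of input DNA before capture, also from batch 1, which was not analysed here. There is 1 captured library and no replicate, so no test across samples could be made and all values describe this library. Peaks on DNA do not measure RNA or protein, so the labelled cell type could not be checked against its markers.

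5hmC is made from 5-methylcytosine by the TET enzymes, almost always at a cytosine followed by guanine (a CG pair). In many tissues it gathers in the bodies of active genes and at enhancers, and it is scarce in inactive chromatin. The male germline loses most of its DNA methylation early in foetal life and is regaining it at this stage.

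Besides gene deserts, the peak-free windows included tandem clusters of closely related genes and the insides of very long genes. Promoters from such clusters, and from Hook1 as a CG-rich contrast chosen after its values were seen, are shown with each CG pair in capitals. Each is 300 bases on the gene's own strand, from 250 before to 50 after a start listed by RefSeq (GRCm38.p6). Gm4724 (chr2:175435728-175436027, minus strand) and Gm14288 (chr2:175800989-175801288, minus strand) lie in the same tandem cluster. The listed start of Gm4724 lies inside its annotated span, chr2:175418037-175704126, and not at the upstream end of that span. Sprr2d (chr3:92338890-92339189) and Sprr2e (chr3:92351893-92352192), both on the plus strand, belong to a cluster of small proline-rich proteins of the skin barrier. Csn1s2a (chr5:87774200-87774499, plus strand) encodes a milk casein. Hook1 (chr4:95967129-95967428, plus strand) encodes a protein that links cargo to microtubules and has a CG-rich promoter.
Gm4724: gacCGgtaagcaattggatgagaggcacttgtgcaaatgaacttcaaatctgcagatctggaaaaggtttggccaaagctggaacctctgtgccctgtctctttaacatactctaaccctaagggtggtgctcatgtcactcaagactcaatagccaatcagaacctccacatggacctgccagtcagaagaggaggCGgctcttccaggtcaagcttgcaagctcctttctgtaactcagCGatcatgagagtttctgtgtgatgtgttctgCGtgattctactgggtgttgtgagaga
Gm14288: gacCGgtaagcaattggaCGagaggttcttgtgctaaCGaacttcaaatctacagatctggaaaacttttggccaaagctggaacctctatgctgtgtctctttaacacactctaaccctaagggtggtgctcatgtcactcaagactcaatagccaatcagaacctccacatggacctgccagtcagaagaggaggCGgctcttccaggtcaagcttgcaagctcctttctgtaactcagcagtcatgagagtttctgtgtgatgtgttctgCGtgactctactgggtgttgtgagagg
Sprr2d: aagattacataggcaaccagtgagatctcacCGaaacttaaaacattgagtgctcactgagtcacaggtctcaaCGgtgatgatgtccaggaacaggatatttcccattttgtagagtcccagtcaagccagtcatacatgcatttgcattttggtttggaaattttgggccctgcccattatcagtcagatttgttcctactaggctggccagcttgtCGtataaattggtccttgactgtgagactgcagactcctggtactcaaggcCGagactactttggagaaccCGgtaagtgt
Sprr2e: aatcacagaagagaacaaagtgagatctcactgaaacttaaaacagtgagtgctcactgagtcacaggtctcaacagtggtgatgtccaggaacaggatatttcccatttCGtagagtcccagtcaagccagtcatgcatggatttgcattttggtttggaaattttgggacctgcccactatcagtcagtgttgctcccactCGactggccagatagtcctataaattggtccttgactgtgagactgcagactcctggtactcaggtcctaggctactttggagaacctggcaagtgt
Csn1s2a: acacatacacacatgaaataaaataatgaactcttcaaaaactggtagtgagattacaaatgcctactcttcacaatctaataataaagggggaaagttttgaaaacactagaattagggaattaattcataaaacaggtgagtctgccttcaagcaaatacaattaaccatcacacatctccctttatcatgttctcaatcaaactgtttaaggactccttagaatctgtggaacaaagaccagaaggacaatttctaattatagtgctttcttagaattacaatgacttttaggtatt
Hook1: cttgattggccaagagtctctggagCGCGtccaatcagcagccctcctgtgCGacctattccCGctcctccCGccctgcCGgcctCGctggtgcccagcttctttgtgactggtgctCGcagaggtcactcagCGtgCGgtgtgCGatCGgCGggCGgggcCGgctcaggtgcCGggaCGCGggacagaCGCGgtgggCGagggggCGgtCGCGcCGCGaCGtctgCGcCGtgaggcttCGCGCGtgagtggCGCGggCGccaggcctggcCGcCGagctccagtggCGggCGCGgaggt
The promoters of Gm4724 and Gm14288 were equal at 284 of 300 bases, and those of Sprr2d and Sprr2e at 264 of 300. They held 4, 5, 5 and 2 CG pairs. The Csn1s2a promoter held 0 CG pairs and the Hook1 promoter 40.

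Every member falls into 1 of 4 classes by what it overlaps. No annotated gene of any type overlapped 42 windows, or 11.7%, against 5.28% of the windows with a peak. Noncoding genes or pseudogenes alone overlapped 92, or 25.6%, against 1760 of the 9246 windows with a peak. A further 85, or 23.7%, lay wholly inside a single protein-coding gene, against 6.53%. The remaining 140, or 39.0%, overlapped a protein-coding gene without lying wholly inside a single one, against 69.2%. This last class is called a protein-coding gene in part, and it includes windows that hold whole genes. Windows with few peaks were close to the peak-free ones in most of this. With 1 peak, 9.80% of windows overlapped no gene, 33.0% noncoding genes or pseudogenes alone and 37.9% a protein-coding gene in part. With 2 peaks these shares were 12.4%, 31.1% and 43.3%. Windows wholly inside a protein-coding gene made up 19.2% of those with 1 peak and 13.2% of those with 2.

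**Figure D1:**
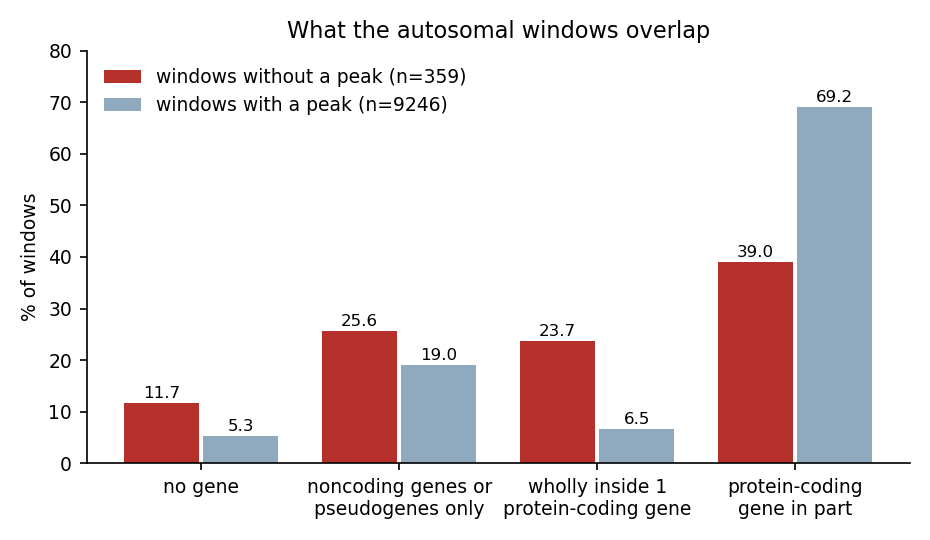
Share of autosomal 250 kb windows (vertical axis, percent) by what they overlap, for the 359 windows without a peak (red) and the 9246 with a peak (blue). Windows wholly inside a protein-coding gene make up 23.7% of the peak-free windows and 6.53% of the others, among which the share is 19.2% for windows with 1 peak.

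Read the other way, the inside of a long gene was the class most often without peaks. Of 689 windows wholly inside a protein-coding gene, 12.3% were peak-free (exact 95% interval 9.97 to 15.03). The share was 7.92% (5.77 to 10.6) of 530 windows with no gene, 4.97% (4.02 to 6.06) of 1852 windows with noncoding genes or pseudogenes only, and 2.14% (1.81 to 2.52) of 6534 windows that hold a protein-coding gene in part. These intervals cover counting error only, and neighbouring windows are not independent.

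Counted by midpoint, genes were sparse in the peak-free windows. These windows held 2.76 protein-coding genes per Mb (Poisson 95% interval 2.43 to 3.13), against 8.77 (8.65 to 8.90) in the windows with a peak. Their lncRNA genes, which make long RNAs without a protein, stood at 2.13 per Mb against 5.25, and their pseudogenes at 2.32 against 3.97. No gene of any type had its midpoint in 83 of the 359 windows, and 223 had no protein-coding midpoint. Pseudogenes were thus reduced less than protein-coding genes, with 1.19 protein-coding genes for each pseudogene against 2.21. This ratio was 1.11 in windows with 1 peak, 1.03 with 2 and 1.09 with 3 to 5, so it was not particular to peak-free windows. By length, protein-coding spans covered on average 42.6% of a peak-free window and 40.8% of a window with a peak. The medians were 27.0% and 39.6%. Fewer midpoints therefore did not mean a smaller average cover by gene spans. The lower protein-coding density depended on the weaker peaks: when peaks needed a −log10 q of at least 5, windows without one held 8.61 genes per Mb, against 8.51 in windows with one.

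This sparseness was shared with windows that held only a few peaks. Protein-coding density was 2.73 per Mb in the 551 windows with 1 peak, 3.20 with 2 peaks, 3.90 with 3 to 5, 6.72 with 6 to 10, 11.7 with 11 to 20 and 17.7 with 21 or more. The windows just outside the rule, with 1 peak, therefore differed from the peak-free ones by less than their counting intervals. Pseudogene density had its highest values at 6 to 20 peaks, 4.66 and 4.65 per Mb, and was 3.39 at 21 or more.

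**Figure D2:**
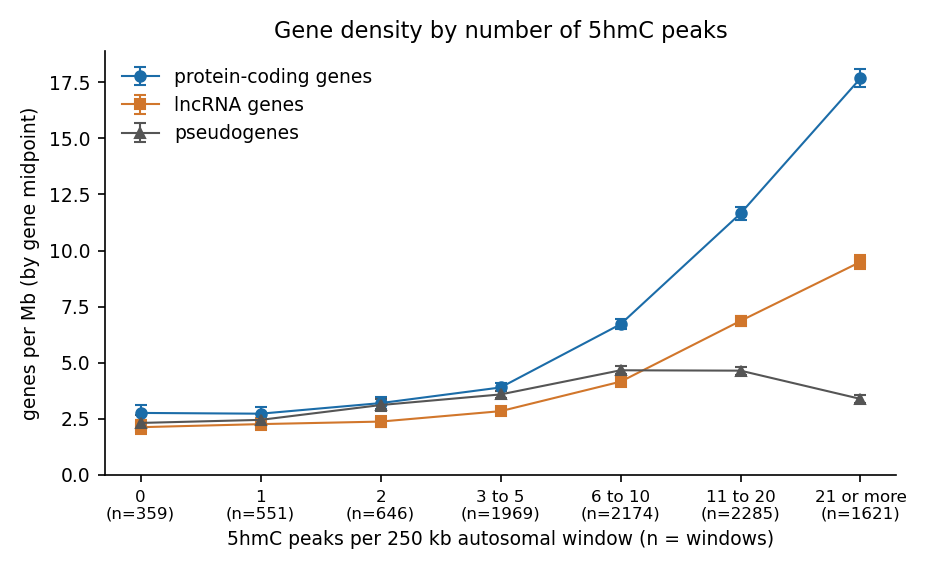
Genes per Mb (vertical axis) in autosomal windows grouped by number of 5hmC peaks (horizontal axis, low to high); bars are Poisson 95% intervals of the gene counts. Protein-coding density is flat from 0 peaks (2.76) to 1 peak (2.73) and reaches 17.7 at 21 or more peaks.

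Fold and −log10 q are the authors' own values for each peak. The lone peak of a window with 1 peak had a median fold of 4.26, between 2.39 and 10.8, and a median −log10 q of 3.32. Across all 106034 autosomal peaks the medians were 3.34 and 1.82. Of these lone peaks, 29.8% had a −log10 q under 2, against 56.7% of all autosomal peaks. Median fold was higher in sparse windows than in dense ones, at 4.27 in windows with 2 peaks and 3.23 in windows with 21 or more. The peaks that border the peak-free runs were of the same kind, with a median fold of 4.22.

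Of 20530 protein-coding genes on these windows, 248 had their midpoint in a peak-free window, a background of 1.21% against which the families below are set. Over genes of all types it was 708 of 46645, or 1.52%. Pseudogenes stood at 2.22% (208 of 9378), lncRNA genes at 1.55% (191 of 12315) and snRNA genes at 2.28% (21 of 920). Of 666 immunoglobulin and T cell receptor segments none lay in a peak-free window (0%, upper bound 0.552%). That bound treats neighbouring segments as independent. Predicted protein-coding genes with a Gm symbol stood at 5.97% (57 of 954; 4.56 to 7.67), against 0.976% (191 of 19576) of the rest. Many of these 57 genes lie in a few clusters on chromosomes 2, 5 and 14. They are not independent, so the interval is too narrow for a statement on predicted genes in general. The whole span of 179 protein-coding genes, or 0.872%, lay in peak-free windows.

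Promoters in peak-free windows were poor in CG pairs. Among 197 protein-coding promoters whose start lay in such a window, the median was 3 CG pairs in 300 bases (quartiles 1 to 11), against 14 (4 to 25) among 16237 in windows with a peak. At most 3 CG pairs were found in 52.8% and in 23.6%. Windows with 1 peak and with 2 peaks also had a median of 3, so low CG content was not confined to the peak-free windows. The letters TATAAA, on either strand, were in 22.3% of the promoters in peak-free windows, against 13.4% in windows with a peak and 13.5% of all autosomal ones. Of the 44 such promoters in peak-free windows, 10 were Sprr promoters of a single window and 8 were olfactory receptor promoters. Promoters of such clusters are not independent, and windows with few peaks were not counted separately for these letters.

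Stretches shared with other genes were common among these promoters. A stretch of 100 bases was shared exactly with the promoter of another gene elsewhere by 72 of 197, or 36.5% (exact 95% interval 29.8 to 43.7), against 4.19% (3.89 to 4.51) in windows with a peak. It was 48 of 274 in windows with 1 peak, then 12.9% with 2 and 0.653% with 21 or more. Promoters of a tandem cluster are not independent, and 24 of the 72 lay in the 2 longest runs. Counted by window, such promoters lay in 27 of the 359 peak-free windows (7.52%), in 15 of the 551 windows with 1 peak (2.72%) and in 20 of the 646 with 2 peaks (3.10%). Only windows with a listed protein-coding promoter could be assessed in this way. Among those the share was 27.0% of 100 peak-free windows, 10.9% of 138 with 1 peak and 10.5% of 190 with 2 peaks. Over all windows with a peak it was 6.31% of 5105. The 27 peak-free windows were on chromosomes 2, 3, 4, 5, 7 and 14. How the authors' pipeline treated reads that map to several places is not given in the sources used here, and the part of such reads in the absence of peaks was not tested. Without windows that hold such a promoter, 332 of 359 were left and their protein-coding density was 1.78 per Mb against 8.31. Windows without a listed promoter cannot be dropped in this way, so part of the lower density is built in. The part of repeated sequence was not tested by it.

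**Figure D3:**
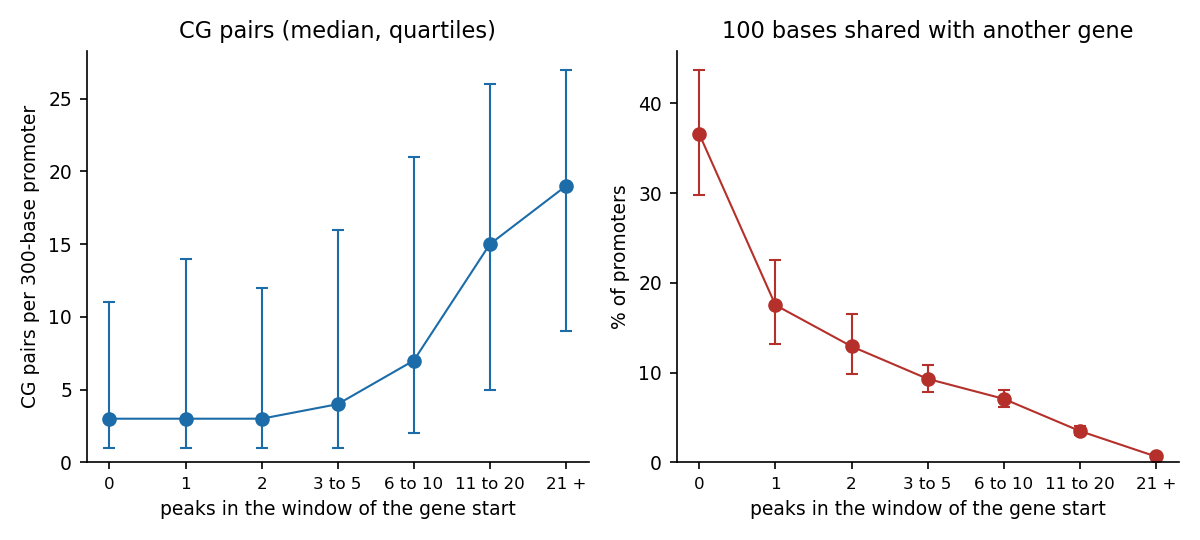
Left, CG pairs per 300-base promoter (median with quartiles); right, percent of promoters that share 100 bases with the promoter of another gene (exact 95% intervals); both by number of peaks in the window of the gene start, low to high. The median is 3 CG pairs at 0, 1 and 2 peaks, while a shared stretch is found in 72 of 197 promoters at 0 peaks and in 48 of 274 at 1 peak.

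The 359 windows formed 294 runs of neighbouring windows. Of these, 246 were a single window, 37 had 2 windows, 7 had 3, 2 had 4 and 2 had 5. Runs of 2 or more windows held 113 windows, or 31.5%. Measured from peak to peak without a grid, 729 autosomal stretches of at least 250 kb had no peak, 95 of at least 500 kb and 9 of at least 1000 kb.

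The longest peak-free run was a tandem cluster of zinc finger and predicted genes on chromosome 2. It spans chr2:175250001-176500000, 1250 kb in 5 windows, and the stretch between its bordering peaks is 1562 kb. It overlaps 13 protein-coding genes, among them Zfp965, Zfp966 and Zfp968, whose symbols mark zinc finger proteins, and Gm4724 and Gm14288, shown above. The Gm4724, Gm2026 and Gm14434 promoters were equal at 300 of 300 bases. In all, 12 of its 13 promoters shared 100 bases with another gene.

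The other run of 5 windows, chr14:5000001-6250000, was also a cluster of predicted genes. It overlaps 45 genes, of which 17 are protein-coding, 14 pseudogenes and 13 lncRNA genes. The peak-free stretch there was 1324 kb. The Gm8246 and Gm3424 promoters, 352 kb apart, were equal at 300 of 300 bases, and 12 of the 17 promoters shared 100 bases with another gene. The same start of chromosome 14 held further single windows, chr14:3000001-3250000, chr14:3500001-3750000 and chr14:7000001-7250000, with 6, 4 and 7 protein-coding genes by midpoint, all but D830030K20Rik with Gm symbols.

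The next 9 runs, of 4 or 3 windows, overlapped at most 3 protein-coding genes each. The run chr11:24500001-25500000 had 4 windows and no protein-coding gene, with 6 lncRNA genes and 1 pseudogene. The run chr4:36250001-37250000 overlaps only Lingo2, a leucine-rich repeat membrane protein gene, among protein-coding genes. Of the 7 runs of 3 windows, chr16:66750001-67500000 lay wholly inside Cadm2, which encodes a synaptic adhesion molecule, and chr12:89500001-90250000 wholly inside Nrxn3, which encodes a presynaptic neurexin. Trps1, a GATA-type transcription factor gene, and Tenm2, a teneurin adhesion gene, were the only protein-coding genes overlapping chr15:50750001-51500000 and chr11:37000001-37750000. The run chr10:102250001-103000000 overlaps Mgat4c, Rassf9 and Nts, the gene of the peptide neurotensin. The runs chr12:94500001-95250000 and chr3:140250001-141000000 overlap no protein-coding gene.

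Windows beside the runs were themselves sparse. Over the 587 neighbouring windows counted from each side of a run, the median was 3 peaks (quartiles 2 to 5), against 8 (4 to 16) over all autosomal windows. Of these neighbours 60.0% had 1 to 3 peaks and 0 had 20 or more, while 20.8% of all windows with a peak had 1 to 3. At a distance of 1 Mb the median was 6 peaks and at 3 Mb it was 10. Protein-coding density followed, with 2.63 genes per Mb in the adjoining windows, 5.56 at 1 Mb and 10.4 at 3 Mb. The longest run had an uneven border, with 8 peaks in the window before it and 1 in the window after it.

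**Figure D4:**
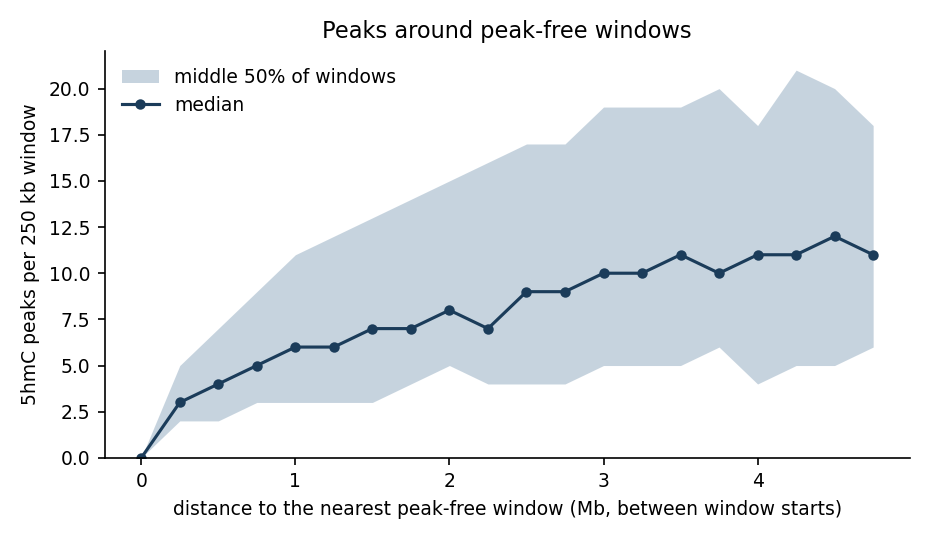
5hmC peaks per 250 kb window (vertical axis; line, median; band, middle 50% of windows) by distance to the nearest peak-free window in Mb (horizontal axis). The value is 0 at distance 0 by the choice of windows, 3 in adjoining windows, 6 at 1 Mb and 10 at 3 Mb.

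Peak-free windows were found on each of the 19 autosomes. Their share was lowest on chromosome 13, with 5 of 469 windows or 1.07% (0.347 to 2.47), and highest on chromosome 16, with 21 of 380 or 5.53% (3.45 to 8.32). Over 5 equal parts of the chromosomes, from the low coordinates on, the share was 2.91%, 4.68%, 3.28%, 5.15% and 2.66%. The X chromosome, present as 1 copy in male cells, had 122 peak-free windows of 670, or 18.2% (15.4 to 21.3). Its peak-free windows held 5.80 protein-coding genes per Mb, against 5.74 over all X windows, so the lower gene density seen in peak-free autosomal windows was not seen on the X.

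The insides of long genes came from 57 protein-coding genes that hold at least 1 whole peak-free window. Those with at least 3 are named here, a choice made after the values were seen. Nrxn3 (chr12:88722701-90334935) spans 1612 kb and holds 4 peak-free windows, with 5 peaks in the whole gene. Robo2, the gene of an axon guidance receptor, holds 3 in 1555 kb, also with 5 peaks. Csmd3, of a large membrane protein, holds 3 in 1212 kb with 1 peak. Cadm2 (chr16:66655416-67620917) holds 3 in 965.5 kb and had 0 peaks in its entire span. Ptprd, of a receptor phosphatase, holds 3 with 10 peaks, and Lsamp, of a neural adhesion protein, 3 with 11 peaks. Among the 15 genes with 2 such windows the peaks in the gene ran between 0 in Lama2, which encodes a laminin chain of muscle basement membrane, and 18 in Ctnna3, of an alpha-catenin.

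Most very long genes held no whole peak-free window. Of 215 autosomal protein-coding genes over 500 kb, 47 (21.9%) held a whole peak-free window. Their median was 0.501 peaks per 100 kb, while the other genes over 500 kb had 1.73, a difference that the choice of genes with an empty window builds in. Tenm3, which encodes a teneurin, held a peak-free window and also 61 peaks, or 4.70 per 100 kb. By midpoint, 13.0% (8.83 to 18.3) of the genes of 500 kb or more lay in a peak-free window, against 5.05% (3.26 to 7.42) of those of 250 to 500 kb, 0.664% (0.490 to 0.879) of those of 20 to 100 kb and 1.24% (0.940 to 1.61) of those under 5 kb.

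The longest genes lying wholly in peak-free windows included several of the nervous system. Ndst4, of an enzyme that modifies heparan sulfate, spans 324 kb, and Ano3, of the anoctamin family, 295 kb. Gm4724 spans 286 kb, Chl1, of a neural adhesion protein, 222 kb, and Kcnc2, of a voltage-gated potassium channel, 196 kb. Tll1, of a metalloprotease, spans 193 kb, Frmd3 189 kb, and Pdgfc, of a platelet-derived growth factor, 178 kb. Ndst3, of another heparan sulfate enzyme, spans 165 kb and Zbbx 127 kb. By the rule none of them holds a peak.

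Of 39 gene families taken by symbol, 28 had no member in a peak-free window and 11 had at least 1. Leucine-rich repeat genes of the synapse stood at 6 of 39 (15.4%; 5.86 to 30.5), each in a window of its own. They were Lingo2, Lrrtm3, Lrfn5, Flrt2, Slitrk1 and Slitrk5. Cadherins outside the protocadherin clusters stood at 4 of 32 (12.5%; 3.51 to 29.0), namely Cdh10, Cdh11, Pcdh9 and Pcdh20. Both shares are above the background of 1.21%. On a grid whose windows start at the midpoints of these they were 2.56% and 15.6%, so the share of the leucine-rich repeat genes depends on where the windows start. When the whole gene had to lie in peak-free windows they were 5.13% and 3.12%, and with windows of 500 kb 2.56% and 0%. The share of all protein-coding genes was 1.34% on the shifted grid, 0.872% for whole genes and 0.259% with windows of 500 kb.

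Tandem families appeared in few windows each. Pramel genes, a rapidly duplicated family, stood at 5 of 45 (11.1%; 3.71 to 24.1), in 3 of the 18 windows that hold any. On the shifted grid they stood at 2.22%, against 1.34% of all protein-coding genes there. Vomeronasal receptors of type 1, pheromone receptors, stood at 8 of 229 (3.49%; 1.52 to 6.77), all in the run chr7:21500001-22000000. There the Vmn1r130 and Vmn1r137 promoters were equal at 300 of 300 bases. Vomeronasal receptors of type 2 stood at 3 of 120 (exact interval 0.519 to 7.13%), namely Vmn2r40, Vmn2r41 and Vmn2r42. Secretoglobins stood at 2 of 40 (5%; 0.611 to 16.9) with Scgb1b15 and Scgb2b15, both in 1 window. The urinary protein family stood at 1 of 22 (4.55%; 0.115 to 22.8) with Mup22. These intervals, like that of the type 2 receptors, include the background of 1.21%. With windows of 500 kb both families stood at 0%, against 0.259% of all protein-coding genes.

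Olfactory receptors, which detect odours, stood at 17 of 1103 (1.54%; 0.900 to 2.46), in 2 of the 171 windows that hold any. Their share depended on the setting, with 3.54% on the shifted grid against 1.34% of all protein-coding genes there, and 15.1% against 5.85% with windows of 100 kb. With windows of 500 kb it was 0% against 0.259%. With peaks of −log10 q of at least 3 it was 10.2% against 10.5%, and of at least 5 it was 22.2% against 38.4%. The family thus stood above all protein-coding genes in some settings and below them in others. Genes with a Zfp, Zscan or related symbol stood at 4 of 419 (0.955%; 0.261 to 2.43), which were Zfp965, Zfp966, Zfp968 and Zfpm2. Ribosomal protein genes stood at 1 of 73 (1.37%; 0.0347 to 7.40), with Rpl35. Cytochrome P450 genes (99), keratin and keratin-associated genes (109), histone genes (75), serpins (62), collagen genes (42), beta-defensins (42) and Hox genes (39) had 0 members in peak-free windows. Their exact upper bounds ran from 3.33% for the keratin genes to 9.03% for the Hox genes, all above the background of 1.21%. A count of 0 therefore sets none of these families apart.

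**Figure D5:**
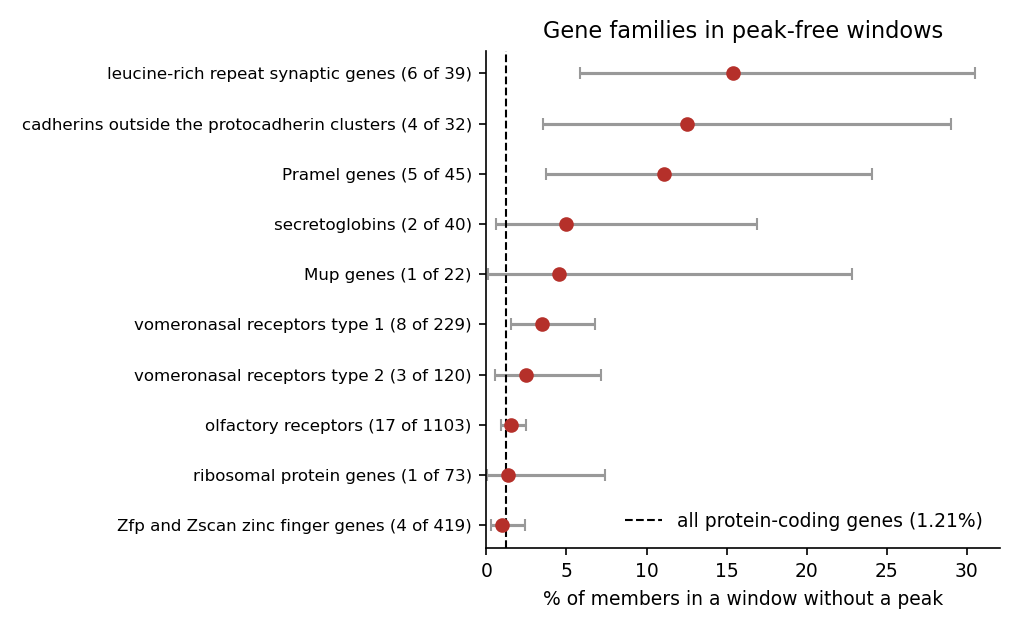
Percent of the protein-coding members of each family with their midpoint in a peak-free window (points, with exact 95% intervals); the dashed line is the 1.21% of all protein-coding genes. Of the 11 families with at least 1 member in such a window 10 are drawn, from the leucine-rich repeat genes at 15.4% to the Zfp and Zscan genes at 0.955%.

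A few peak-free windows were packed with genes. The window chr2:88750001-89000000 held 13 olfactory receptor genes, Olfr1199 to Olfr1214 in part, whose 12 listed promoters had a median of 1 CG pair. The window chr3:92250001-92500000 held 12 genes of the Sprr family, whose proteins build the cornified envelope of skin. Of the symbol stems with at least 10 members, Sprr had the highest share, 12 of 14 or 85.7%, followed by Ano and Pcdh with 2 of 10 each. It was singled out after the values were seen. The Sprr share was 50.0% on the shifted grid, and with windows of 100 kb all 14 genes lay in peak-free windows, while with windows of 500 kb 0 of 14 did. All protein-coding genes stood at 1.34%, 5.85% and 0.259% in these settings. Its 12 promoters had at most 5 CG pairs, and 10 of them held TATAAA, against 13.5% of all autosomal promoters. Just 2 of them, at Sprr2a2 and Sprr2a3, shared 100 bases with another gene.

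The window chr5:87750001-88000000 held 7 protein-coding genes by midpoint, among them the milk casein genes Csn1s2a, Csn1s2b and Csn3 and the enamel organ gene Odam. Its 5 listed promoters had at most 1 CG pair and none shared 100 bases with another gene. Windows with 7 protein-coding genes were also chr14:7000001-7250000, with predicted genes, and chr14:26000001-26250000, with Duxbl2, Cphx2 and Cphx3, all homeobox genes. In all, 10 of the 359 windows held 5 or more protein-coding genes, or 2.79%, against 15.4% of the windows with a peak. Windows with few peaks were close to this, at 3.09% with 1 peak, 4.33% with 2 and 4.88% with 3 to 5.

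Broadly expressed genes filled the window chr2:39000001-39250000, picked after its values were seen. It held Rpl35, a ribosomal protein gene, Ppp6c, of a phosphatase, Golga1, of a Golgi protein, Arpc5l, of an actin-nucleating complex, and Scai. Protein-coding spans covered 87.5% of it. Its 4 listed promoters were rich in CG pairs, with 27 at Rpl35, 39 at Golga1, 24 at Scai and 21 at Ppp6c, and none of these 4 shared 100 bases with another gene. The peaks on each side of this window were 285 kb apart.

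By midpoint, the peak-free windows held 0 of 27 germ cell identity genes, 0 of 31 meiosis genes, 0 of 21 genes of the DNA methylation machinery and 0 of 18 pluripotency genes. There were also 0 of 14 genes of the gonadal soma and 0 of 8 of endothelium and blood. With a background of 1.21%, a count of 0 in a list of this size is near that share and sets no list apart. Of 48 developmental transcription factor genes only Foxp2, a forkhead gene active in the brain, lay in a peak-free window. Foxp2 spans 541 kb and had 1 peak. The lists do not cover all genes of male germ cells: Pgk2, of a glycolytic enzyme of spermatids, and Izumo3, of a sperm protein, both named after the values were seen, lay in peak-free windows.

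MicroRNA genes stood near the background, with 17 of 1136 (exact interval 0.874 to 2.39%), against 1.52% of genes of all types. RefSeq listed mature sequences for 12 of the 17, with 18 sequences and 17 different seeds. The seed, bases 2 to 8, is the part that pairs with target RNAs and is in capitals. The sequences shown are those of a pair that shares a seed, of the microRNA in Slit2 and of 2 from inside Lingo2.
miR-181a-5p: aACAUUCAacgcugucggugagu
miR-181b-5p: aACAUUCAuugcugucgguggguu
miR-218-5p: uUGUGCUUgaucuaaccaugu
miR-873a-5p: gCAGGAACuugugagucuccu
miR-876-5p: uGGAUUUCucugugaaucacua
The miR-181a-5p and miR-181b-5p sequences share the seed ACAUUCA. Their genes, Mir181a-1 and Mir181b-1 (chr1:137966455-137966541 and chr1:137966639-137966718), lie 260 kb from the nearest peak. Mir218-1 lies inside Slit2, the gene of an axon guidance ligand, whose span of 326 kb held 0 peaks. Mir873a, Mir873b and Mir876 lie inside Lingo2, in its run of 4 windows, between 423 and 446 kb from the nearest peak.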

How the data were processed

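Build mm10 and the tools MACS2 2.1.0 (a peak caller) and Bowtie2 2.5.0 (an aligner) are named per the submitters' processing notes, as are deepTools 3.5.1, Trim Galore, bedtools 2.27.1 and SAMtools 1.16.1. Their settings, and whether a control library entered peak calling, are not given in those notes. The deposited list by the authors gives each of 108395 broad peaks a score, a fold enrichment (a ratio over the background the caller assumed), a −log10 p and a −log10 q of at least 1.01. Without reads in it, sequencing depth is unknown, and weak 5hmC below the caller's threshold leaves no trace.

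A window was peak-free when no peak overlapped it by 1 bp. Genes, promoters and microRNAs came from RefSeq tables of GRCm38.p6, the same build. A gene was placed by its midpoint and a promoter by its start. Of the 248 protein-coding genes in peak-free windows, 206 had a listed promoter. Where several starts were listed the outermost of these was used, which can still lie inside the gene's span. No genome sequence was used, so assembly gaps were not excluded. Window counting was tested on simulated data against bedtools 2.31.1, with Python 3.11.15 and pandas 2.3.3. Intervals are exact Clopper-Pearson for shares and exact Poisson for densities, at 95%, for counting error only. Named genes are those of the longest runs, the 10 longest wholly peak-free genes, list and family members, microRNAs, leading symbol stems and the 5 most gene-rich windows; other genes, such as Hook1, those of long genes with whole peak-free windows and those near Rpl35, were chosen after their values were seen. The members of 1 further family are not reported here. The members and lists were chosen with earlier results of these data known. Alternatives covered peak threshold, overlap, grid, window size, chromosome end, gene placement and peaks allowed.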

Additional observations from a re-analysis of the deposited data

How the results depend on the processing

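The peak threshold and the window size set how many windows are peak-free. With peaks of −log10 q of at least 3 and of at least 5, 1535 and 3665 windows were peak-free (16.0% and 38.2%), in 1173 and 2028 runs. They held 10.5% and 38.4% of protein-coding genes. Their protein-coding density was 5.61 per Mb against 9.11 in the windows with a peak, and 8.61 against 8.51, so the lower gene density of peak-free windows was no longer seen at −log10 q of 5 or more. The X shares were then 45.7% and 73.0%. Windows of 100 kb and 500 kb gave 3527 and 34 peak-free windows (14.7% and 0.709%) in 2220 and 31 runs. They held 5.85% and 0.259% of protein-coding genes, and the X shares were 44.4% and 5.37%. By share alone, 22 and 4 families then stood above all protein-coding genes of the setting, in place of 10. In a small family 1 member is enough for this. Among the 10, the intervals of the olfactory, type 2 vomeronasal, urinary protein, secretoglobin and ribosomal protein families included the background of 1.21%. Density was 3.41 per Mb with 100 kb windows. Allowing 1 peak per window gave 910 windows (9.47%) in 637 runs, 3.04% of protein-coding genes, 16 families and an X share of 34.8%. Density was 3.20 per Mb on the grid shifted to window midpoints, 2.13 against 8.39 without Gm symbols and 1.78 without windows of shared promoters. This last alternative was chosen after seeing the data and can drop only windows that hold a listed promoter. Requiring the whole gene span gave 0.872% of protein-coding genes. Stretches between peaks in place of runs numbered 729. Using peak midpoints or ending before the start of the last gene moved no window count, share, density or run count past its interval or 1.5 times. Without receptor families the mean was 8.62 CG pairs per promoter against 17.05, compared with 7.75 against 15.8. Of 108 family shares under alternatives, 42 moved past the counting interval of the first value. No paired analysis was possible because there is 1 captured library. A count of 0 peaks is a threshold call at unknown depth.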
